A study of Homo sapiens with 3 samples.

Results

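The 40 genes described here act in mitosis and DNA replication. They were chosen by symbol, not by a cutoff on their values, and make up 40 of the 33538 genes in each count table. By role, 22 belong to mitosis, 16 to DNA replication and its nucleotide supply, and the remaining 2, CENPU and HMGB2, were kept apart from both. The data came from cultures of the H1 embryonic stem cell line, an established human line, that were taken toward pancreatic beta cells and read as droplet single-cell RNA counts. The KO library was labelled homozygous for a PAX6 lesion (PAX6-/-), the HET library heterozygous (PAX6+/-), and the remaining library WT. Each genotype was 1 library, and neither the position of the lesion nor the number of clones or differentiations is stated in the labels. Differences between genotypes therefore had no replicate check and no p-value.

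A cycling cell copies its DNA in S phase and separates the copies in mitosis. Replication genes, among them the MCM helicase subunits, the clamp PCNA and the enzymes that make deoxynucleotides, are switched on mainly by E2F factors as cells enter S phase. Mitosis genes such as cyclin B, CDK1 and the spindle motors follow in G2, through promoters that carry CCAAT boxes and a cell cycle homology region (CHR) bound by MuvB complexes. Endocrine cells of the pancreas arise from cycling progenitors that leave the cell cycle as they switch on NEUROG3 and, later, granule genes such as CHGA, and human beta cells divide rarely.

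Promoters of both role groups are shown first, 6 in all, since their motifs differ between the groups and they belong to genes that mark the largest or the smallest differences below, to PCNA and to the proliferation marker MKI67. Each window runs from 250 bases before to 50 bases after a start given by RefSeq on GRCh38.p14, 5′ to 3′ on the gene's strand. Capitals mark matches, on either strand, to CHR (TTTGAA or TTCGAA), to CCAAT, and to an E2F site (TTTCCCGC, TTTCGCGC, TTTGCCGC or TTTGGCGC). CCNB2 (chr15:59104896-59105195, plus strand) and MKI67 (chr10:128126374-128126673, minus strand) carry a CHR that begins 29 bases before the start, and MKI67 has another at 47 bases. PTTG1 (chr5:160421605-160421904, plus strand), the mitosis member that differed least between cell classes, has CCAAT boxes and no match to these CHR letters. TYMS (chr18:657403-657702, plus strand) and PCNA (chr20:5126573-5126872, minus strand) carry an E2F site that begins 39 and 59 bases before the start. RRM1 (chr11:4094435-4094734, plus strand), the replication member that differed least, has none, and its capitals mark a CHR on the opposite strand and a CCAAT box. In MKI67 the CHR nearer the start overlaps a CCAAT box.
CCNB2: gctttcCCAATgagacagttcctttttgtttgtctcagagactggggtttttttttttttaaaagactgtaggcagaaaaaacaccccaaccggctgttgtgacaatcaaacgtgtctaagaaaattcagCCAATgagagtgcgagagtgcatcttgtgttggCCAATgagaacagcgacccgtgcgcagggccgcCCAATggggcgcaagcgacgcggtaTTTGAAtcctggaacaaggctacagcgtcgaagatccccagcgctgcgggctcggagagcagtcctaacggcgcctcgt
MKI67: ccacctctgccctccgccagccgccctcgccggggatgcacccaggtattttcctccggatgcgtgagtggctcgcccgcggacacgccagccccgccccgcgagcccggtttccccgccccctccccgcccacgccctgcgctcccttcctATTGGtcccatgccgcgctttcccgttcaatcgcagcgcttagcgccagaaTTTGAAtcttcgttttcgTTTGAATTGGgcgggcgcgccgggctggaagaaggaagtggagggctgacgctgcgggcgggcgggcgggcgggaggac
PTTG1: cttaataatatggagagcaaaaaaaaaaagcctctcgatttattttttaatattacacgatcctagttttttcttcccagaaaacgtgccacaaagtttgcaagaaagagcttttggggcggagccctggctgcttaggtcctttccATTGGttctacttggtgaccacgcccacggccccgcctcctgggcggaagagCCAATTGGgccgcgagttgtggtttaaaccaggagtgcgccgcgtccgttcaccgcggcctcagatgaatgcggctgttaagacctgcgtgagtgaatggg
TYMS: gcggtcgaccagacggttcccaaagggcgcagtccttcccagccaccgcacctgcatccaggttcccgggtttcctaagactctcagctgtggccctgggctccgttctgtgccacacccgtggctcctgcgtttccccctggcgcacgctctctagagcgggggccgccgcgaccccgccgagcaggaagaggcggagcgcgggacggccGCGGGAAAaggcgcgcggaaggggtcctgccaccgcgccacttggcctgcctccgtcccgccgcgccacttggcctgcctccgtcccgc
PCNA: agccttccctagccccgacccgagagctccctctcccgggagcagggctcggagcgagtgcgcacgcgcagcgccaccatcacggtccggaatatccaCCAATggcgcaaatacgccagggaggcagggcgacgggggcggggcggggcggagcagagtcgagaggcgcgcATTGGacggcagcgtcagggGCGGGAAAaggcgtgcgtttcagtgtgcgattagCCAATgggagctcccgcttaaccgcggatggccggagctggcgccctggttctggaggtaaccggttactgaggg
RRM1: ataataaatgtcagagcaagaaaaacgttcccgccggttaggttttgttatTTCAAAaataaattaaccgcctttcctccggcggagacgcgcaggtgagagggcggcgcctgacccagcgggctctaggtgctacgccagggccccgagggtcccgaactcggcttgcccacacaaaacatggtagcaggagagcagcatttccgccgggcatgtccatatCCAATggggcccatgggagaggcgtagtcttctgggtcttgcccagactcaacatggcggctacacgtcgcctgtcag

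RefSeq windows were found for 33 of the 40 members. A match to the CHR letters was present for 14 of 18 mitosis members with a window (77.8%), 2 of 14 replication members (14.3%) and 19.5% of 27305 genes in the table. An E2F site was present for 2 of 18 mitosis members (11.1%), 11 of 14 replication members (78.6%) and 3.99% of all genes. CCAAT was common in both, at 94.4% of mitosis members, 71.4% of replication members and 39.7% of all genes. A match is a run of letters and not a measured binding site. Other forms of these motifs were not searched, so a member without a match may still carry one. Genes had 1.17, 1.5 and 1.29 windows each in the mitosis group, the replication group and the whole table, and a gene counted as positive if any window matched.

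Cells were kept at 1000 to 40000 UMIs (counted molecules), and called CHGA-high at 10 or more CHGA UMIs per 10,000. CHGA-high cells numbered 977 in KO (12.2%), 533 in HET (6.90%) and 1391 in WT (17.6%), and CHGA-low cells 7053, 7191 and 6500 in the same libraries. All 12 endocrine markers other than CHGA were higher in CHGA-high cells in every library, by 1.51 to 195-fold, as the label of the class calls for, although most cells of these cultures, labelled as beta cells, were CHGA-low. PAX6 stood at 333, 279 and 361 UMIs per 1000000 UMIs of the class (CPM) in the CHGA-high cells of KO, HET and WT. A count over the whole transcript does not check a lesion whose position is unknown. Class totals were 11771310, 7115246 and 17572785 UMIs in the CHGA-high cells of KO, HET and WT and 113194263, 105825682 and 97173028 UMIs in CHGA-low cells. The median share of mitochondrial UMIs was 9.26%, 8.62% and 6.56% in CHGA-high cells and 5.42%, 6.23% and 4.74% in CHGA-low cells, and its part in the differences below was not tested. Pairs of libraries shared 26 to 43 cell barcodes, at most 0.447% of a library.

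All 40 members were lower in CHGA-high than in CHGA-low cells, and the mitosis sum by more than the replication sum in each library. In the sum over 22 mitosis members, CHGA-high cells had 111, 118 and 88.5 CPM in KO, HET and WT, against 363, 657 and 376 CPM in CHGA-low cells, which was 3.28-fold, 5.55-fold and 4.25-fold lower. The 16 replication members summed to 191, 202 and 130 CPM in CHGA-high cells, against 395, 494 and 257 CPM in CHGA-low cells, or 2.07-fold, 2.44-fold and 1.97-fold lower. Replication UMIs per mitosis UMI were therefore higher in CHGA-high cells, at 1.73, 1.71 and 1.47 in KO, HET and WT, against 1.09, 0.752 and 0.681 in CHGA-low cells. In these class sums, fewer cycling cells and less RNA per cycling cell cannot be told apart. The larger difference of the mitosis sum holds for whole classes, and was not seen among the uncalled cells described below.

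Class sums were compared with edgeR's quasi-likelihood test, with the library as a block and Benjamini-Hochberg adjustment over 18809 genes. Each of the 22 mitosis members and 16 replication members passed at an adjusted p under 0.05 in the lower direction, where 27.6% of all genes tested were lower and 26.3% higher. The median log2 difference was -2.33 for mitosis members (-2.91 to -1.13), -1.44 for replication members (-2.15 to -0.47) and -0.03 for all genes. The size for mitosis members depended on doublet removal and on the CHGA threshold. With the removed barcodes kept their median was -1.72, and 14 of the 22 moved by over 1.5 times. At CHGA thresholds of 5 and 20 it was -1.90 and -2.90, and 4 members moved that far at each. Every one of the 38 was lower in each library taken alone. The share of all genes of which that held is not given. All 40 members had UMIs in each of the 6 sums and passed the filter on low counts. The 6 sums came from 3 libraries that also differ in genotype, so the p-values rest on 3 pairs.

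**Figure D1:**
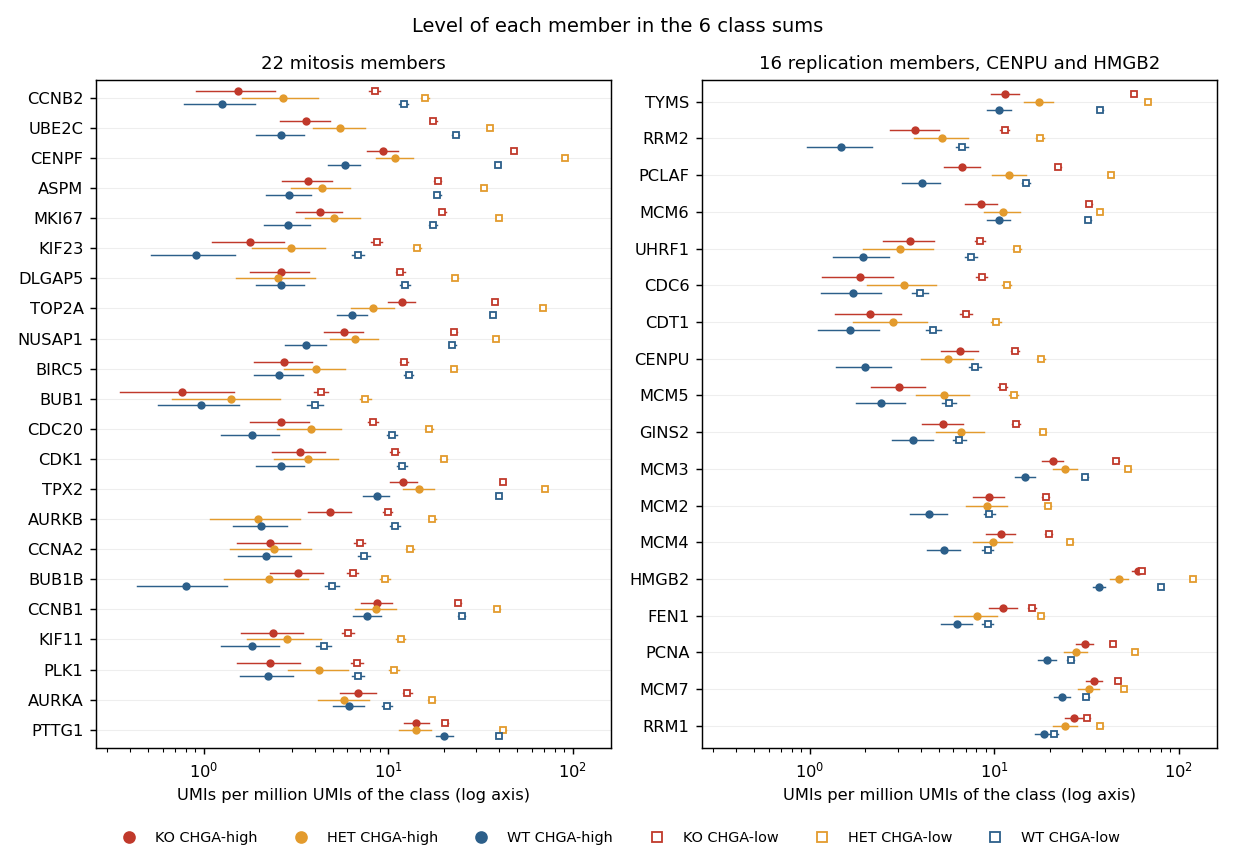
Level of every member, in CPM on a log axis, in CHGA-high cells (filled circles) and CHGA-low cells (open squares) of KO (red), HET (orange) and WT (blue), with exact 95% Poisson intervals, and with the largest difference between classes at the top. Circles lie left of squares for all 22 mitosis members and 16 replication members in every library, while HMGB2 in KO has a circle and a square that nearly coincide.

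Among mitosis members, the largest differences were those of CCNB2, a B-type cyclin of CDK1, UBE2C, the ubiquitin-conjugating enzyme of the anaphase-promoting complex, and CENPF, a kinetochore protein of G2 and mitosis. CCNB2 had 1.53, 2.67 and 1.25 CPM in the CHGA-high cells of KO, HET and WT, against 8.43, 15.8 and 12.1 CPM in CHGA-low cells (log2 -2.91 ± 0.22, SE; edgeR adjusted p = 0.000295). UBE2C had 3.57, 5.48 and 2.62 CPM against 17.5, 35.4 and 23.2 CPM in the same order of classes and libraries (log2 -2.84 ± 0.19, edgeR adjusted p = 0.000207). CENPF had 9.34, 10.8 and 5.80 CPM in CHGA-high cells, against 47.8, 90.6 and 39.1 CPM in CHGA-low cells (log2 -2.84 ± 0.14, edgeR adjusted p = 0.000107). With doublets kept their log2 differences were -1.82, -1.79 and -1.75. For these 3 genes the highest CHGA-high library lay below the lowest CHGA-low library. The share of all genes with such a gap is not given, so here and below it is not read as particular to the members.

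MKI67, which coats mitotic chromosomes and is the usual proliferation marker, stood at 4.25, 5.06 and 2.85 CPM in the CHGA-high cells of KO, HET and WT, against 19.6, 39.6 and 17.5 CPM in CHGA-low cells, 6.55-fold lower in the fit (log2 -2.71, against -1.78 with doublets kept, -2.06 at a CHGA threshold of 5 and -3.42 at 20). TOP2A, the topoisomerase that untangles sister chromatids, had 11.8, 8.29 and 6.37 CPM against 37.6, 69.1 and 36.8 CPM in CHGA-low cells, a 5.67-fold difference. TPX2, which nucleates spindle microtubules and activates Aurora A, had 12.1, 14.6 and 8.65 CPM against 41.8, 70.8 and 39.6 CPM in CHGA-low cells. In each of these the 2 classes did not overlap. CDK1, the kinase that drives entry into mitosis, had 3.31, 3.65 and 2.62 CPM in CHGA-high cells, against 10.9, 19.98 and 11.9 CPM in CHGA-low cells. Its partner CCNB1 had 8.67, 8.57 and 7.68 CPM against 23.97, 39.02 and 24.9 CPM in CHGA-low cells (log2 -1.89 ± 0.14, edgeR adjusted p = 0.000275). The kinase and its B-type cyclins thus all passed in the lower direction, with log2 differences of -2.91 for CCNB2 and -1.89 for CCNB1.

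The spindle motors KIF11 and KIF23 were also lower. KIF11, which pushes the spindle poles apart, had 2.38, 2.81 and 1.82 CPM in the CHGA-high cells of KO, HET and WT, against 6.03, 11.7 and 4.47 CPM in CHGA-low cells. KIF23, which works in cytokinesis, had 1.78, 2.95 and 0.910 CPM against 8.63, 14.3 and 6.86 CPM in CHGA-low cells. The smallest differences of the group belonged to PTTG1, AURKA and PLK1. PTTG1 (securin, which holds back separase until anaphase) had 14.2, 14.1 and 20.1 CPM in CHGA-high cells, against 20.3, 42.0 and 39.5 CPM in CHGA-low cells (log2 -1.13 ± 0.18, edgeR adjusted p = 0.0038). AURKA, a kinase of the centrosome and spindle, had 6.88, 5.76 and 6.09 CPM against 12.7, 17.2 and 9.86 CPM in CHGA-low cells. The 2 classes did not overlap for these either, although the KO CHGA-low value of PTTG1 came close to the WT CHGA-high one. PLK1, a kinase acting from the G2 phase to cytokinesis, had 2.29, 4.22 and 2.22 CPM in CHGA-high cells, against 6.77, 10.8 and 6.87 CPM in CHGA-low cells (log2 -1.64 ± 0.16, edgeR adjusted p = 0.000721). The other 9 mitosis members ranged between log2 -2.76 for ASPM and -1.94 for BUB1B, among them AURKB, whose -2.19 became -2.79 without the KO library.

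The replication group was led by TYMS, RRM2 and PCLAF. TYMS, which makes the thymidylate needed for DNA synthesis, had 11.5, 17.4 and 10.6 CPM in the CHGA-high cells of KO, HET and WT, against 57.1, 68.4 and 37.6 CPM in CHGA-low cells (log2 -2.15 ± 0.12, edgeR adjusted p = 0.000148). RRM2, the S phase subunit of ribonucleotide reductase, had 3.74, 5.20 and 1.48 CPM against 11.4, 17.7 and 6.69 CPM in CHGA-low cells (log2 -1.95 ± 0.17, edgeR adjusted p = 0.000462). PCLAF, a PCNA-binding factor, had 6.71, 12.1 and 4.04 CPM against 22.1, 42.9 and 14.9 CPM in CHGA-low cells. In each library all 3 were lower in CHGA-high cells, beyond the counting intervals of both values.

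At the other end stood RRM1, MCM7 and PCNA. RRM1, the large subunit of ribonucleotide reductase, had 27.0, 24.2 and 18.5 CPM in the CHGA-high cells of KO, HET and WT, against 31.9, 37.5 and 21.1 CPM in CHGA-low cells (log2 -0.47 ± 0.10, edgeR adjusted p = 0.0104). Its CHGA-high values in KO and HET exceeded the CHGA-low value in WT, so the classes overlapped across libraries, and the call was lost in edgeR without the library block (adjusted p = 0.0885) or without the HET library (0.0787). MCM7, a subunit of the replicative helicase, had 34.7, 32.6 and 23.3 CPM against 46.9, 50.2 and 31.3 CPM in CHGA-low cells (log2 -0.61 ± 0.08, edgeR adjusted p = 0.00151). PCNA, the sliding clamp that also serves DNA repair, had 30.9, 27.5 and 19.3 CPM against 43.7, 57.6 and 25.9 CPM in CHGA-low cells (log2 -0.78 ± 0.12, edgeR adjusted p = 0.00368). These too overlapped across libraries and differed within each library.

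The 6 MCM helicase subunits did not move alike. MCM6 differed most (log2 -1.88) and MCM5 next (-1.56), then MCM3 (-1.24), MCM2 (-1.19), MCM4 (-1.12) and MCM7 (-0.61). MCM3 had 20.7, 24.2 and 14.7 CPM in the CHGA-high cells of KO, HET and WT, against 45.9, 53.4 and 30.9 CPM in CHGA-low cells. The licensing factors CDC6 and CDT1, which load this helicase, had log2 differences of -1.86 and -1.81, GINS2 of the active helicase -1.32, the maintenance methylation factor UHRF1 -1.88, and the flap nuclease FEN1 -0.85. CENPU, a kinetochore protein, had 6.54, 5.62 and 1.99 CPM in CHGA-high cells, against 13.0, 17.9 and 7.88 CPM in CHGA-low cells (log2 -1.63 ± 0.21, edgeR adjusted p = 0.00189). HMGB2, a chromatin protein abundant in dividing cells, had 60.4, 47.4 and 36.9 CPM in CHGA-high cells, against 62.8, 119 and 79.7 CPM in CHGA-low cells (log2 -0.95 ± 0.24, edgeR adjusted p = 0.0192). Its KO values were nearly equal in both classes. Its edgeR call was lost without the HET library (adjusted p = 0.118) and without the WT library (0.0781).

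Promoter letters and size of difference can be set side by side as a description. The 14 mitosis members with a match to the CHR letters had a median log2 difference of -2.50 (-2.91 to -1.64). The 4 without a match, CCNB1, CCNA2, AURKB and PTTG1, had -1.97 (-2.19 to -1.13). Since other CHR forms were not searched, those 4 cannot be taken to lack the element. The 11 replication members with an E2F site had a median of -1.81 (-2.15 to -0.61) and the 3 without one, RRM1, RRM2 and FEN1, -0.85 (-1.95 to -0.47). The ranges overlapped, and RRM2 without a matching site was among the 3 largest differences of its group.

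Other genes of the cell cycle were read from lists that hold no member. For comparison, 27.6% of all genes tested were lower and 26.3% higher. Of 26 further mitosis genes, 22 were lower, 1 was higher and 3 did not pass, with a median log2 of -2.13. The exception was SMC2, a condensin subunit, at 84.4, 168 and 125 CPM in the CHGA-high cells of KO, HET and WT (log2 1.86 ± 0.17, edgeR adjusted p = 0.000548). Of 26 further replication genes, 20 were lower, 1 was higher (DUT, which keeps uracil out of DNA) and 5 did not pass, with a median of -1.01. Of 22 regulators, 15 were lower, 3 higher and 4 did not pass. The 3 higher ones are a smaller share than among all genes, so they are named as single genes only. The lower ones included the D-type cyclins CCND1 (log2 -1.99) and CCND2 (-2.59), and the higher ones were CDK6 (1.21), RB1 (0.54) and RBL2 (0.26), the last 2 being pocket proteins that restrain E2F.

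Of 7 CDK inhibitors, 3 were higher, 1 was lower and 3 did not pass, where 26.3% of all genes tested were higher, so no direction is read for the list. CDKN2B had 12.5, 26.4 and 35.2 CPM in the CHGA-high cells of KO, HET and WT and a log2 difference of 1.79 ± 0.18 from CHGA-low cells (edgeR adjusted p = 0.000674). CDKN2D had 22.9, 16.7 and 27.6 CPM and a log2 difference of 2.02 ± 0.16 (edgeR adjusted p = 0.000363). CDKN2A was also higher, at under 2 CPM in every library. CDKN1A was lower (log2 -1.36). CDKN1C, an imprinted inhibitor known in pancreatic endocrine cells, stood at 485, 728 and 812 CPM in CHGA-high cells, and its difference from CHGA-low cells did not pass (log2 0.31, edgeR adjusted p = 0.091). In the CHGA-high cells of KO against WT, CDKN2B was the 1 inhibitor of 5 at or above 10 CPM that lay 2-fold lower, where 3.33% of genes did.

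To count cells rather than molecules, each cell was thinned to 3000 UMIs and called when at least 3 mitosis members, or at least 3 replication members, were detected. A mitosis call was found in 9 of 888 KO CHGA-high cells (1.01%, exact 95% interval 0.464 to 1.92), 8 of 514 HET cells (1.56%, 0.674 to 3.04) and 16 of 1290 WT cells (1.24%, 0.711 to 2.01). In CHGA-low cells the shares were 5.92% (412 of 6963), 9.97% (707 of 7093) and 5.29% (338 of 6389). Replication calls were found in 2.59% (23 cells), 2.72% (14 cells) and 0.853% (11 cells) of CHGA-high cells in KO, HET and WT, against 8.79%, 12.0% and 4.41% of CHGA-low cells. Both kinds of call were less frequent in CHGA-high cells in each library, with intervals that did not overlap. These intervals, like the others given here, cover counting error only.

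The 2 calls overlapped to different degrees in the libraries. Of mitosis-called CHGA-low cells, 72.3% in KO, 68.6% in HET and 46.2% in WT also had a replication call. In CHGA-high cells this was 7 of 9 in KO, 4 of 8 in HET and 5 of 16 in WT. Replication members carried more of their UMIs outside called cells. In the CHGA-high class, cells with neither call held 54.3% of mitosis UMIs and 79.1% of replication UMIs. In the CHGA-low class they held 15.4% and 50.5%. Cells with a mitosis call held 42.4% of mitosis UMIs in the CHGA-high class and 81.5% in the CHGA-low class. Low replication counts were therefore spread over many uncalled cells, as were mitosis counts in the CHGA-high class. With the libraries pooled, cells with neither call had 56.3 CPM of mitosis members and 134 CPM of replication members in the CHGA-high class. In the CHGA-low class they had 82.7 and 224 CPM, so among them the mitosis sum did not differ by more than the replication sum. Such cells were picked by the members' own counts. Free RNA was not subtracted from any of these values.

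The share of mitosis calls was lowest in cells well above the CHGA threshold, though by little in HET. With the 3 libraries pooled, it was 6.64% at no CHGA UMI, 8.78% at over 0 to under 1 per 10,000, 6.08% at 1 to under 3, 5.28% at 3 to under 10, 3.52% at 10 to under 30, 0.572% at 30 to under 100 and 0.368% at 100 or more. Cells at 10 to under 30 gave 8 of the 9 KO calls, 3 of 8 in HET and 12 of 16 in WT. At 30 or more, a threshold chosen after these values were seen, calls were found in 1 of 713 KO cells (0.140%), 5 of 388 HET cells (1.29%) and 4 of 937 WT cells (0.427%). Cells just inside the threshold (10 to under 30) and just outside it (3 to under 10) had 4.57% and 4.26% called in KO, 2.38% and 4.44% in HET, and 3.40% and 6.52% in WT. In HET the share just inside it and the 1.65% at 30 to under 100 differed by less than their counting intervals.

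**Figure D2:**
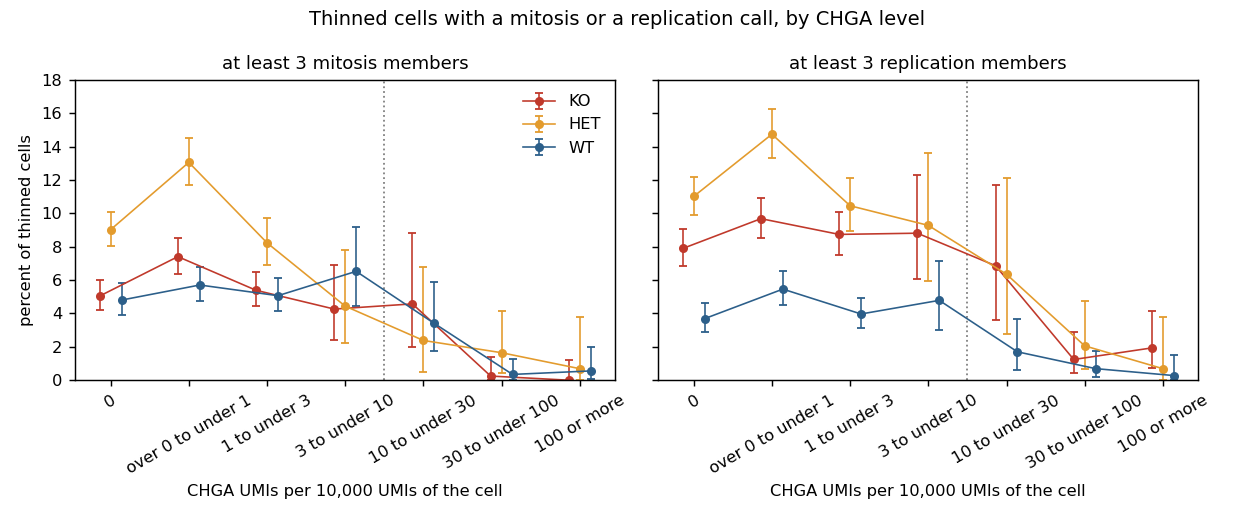
Percent of cells thinned to 3000 UMIs with at least 3 mitosis members (left) or 3 replication members (right) by the cell's CHGA UMIs per 10,000, in KO (red), HET (orange) and WT (blue), with exact 95% binomial intervals. The dotted line is the threshold of 10, and mitosis calls stay at or under 1.65% in every library from 30 per 10,000 upward.

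CHGA-high cells with a mitosis call carried less of the endocrine program than uncalled ones. Their median CHGA level was 21.0 per 10,000, against 61.4 in cells with neither call. In KO the 9 mitosis-called cells summed to 271 CPM of the 12 endocrine markers, close to the 277 CPM of mitosis-called KO CHGA-low cells and far from the 8343 CPM of CHGA-high cells with neither call. In HET the 8 called cells had 4108 CPM and in WT the 16 called cells 2096 CPM, against 7754 and 9848 CPM in cells with neither call. By cell, 0 of 9 in KO, 5 of 8 in HET and 7 of 16 in WT had 20 or more endocrine marker UMIs per 10,000, a threshold chosen after the values were seen. Uncalled CHGA-high cells reached it in 95.9%, 91.7% and 92.8% of cases, and mitosis-called CHGA-low cells in 1 of 1457. Over the 3 libraries 12 cells had a mitosis call, CHGA at or above the threshold and 20 or more endocrine UMIs per 10,000. For 0 of 9 the exact interval reaches 33.6%.

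Barcodes holding more than 1 cell can join CHGA to cycling genes, so calls were also counted in the barcodes set aside. An automatic doublet call marked 1 barcode in KO, 1 in HET and 0 in WT, and was replaced by removing the top 8% of doublet scores in each library. Among the removed CHGA-high barcodes, 8.33% in KO (10 of 120), 11.9% in HET (10 of 84) and 5.77% in WT (12 of 208) had a mitosis call, all above the shares in the kept cells. Removed CHGA-low barcodes were also called more often than kept ones, at 12.5%, 18.1% and 6.30%, against 5.92%, 9.97% and 5.29%. In WT the counting interval of the removed share, 4.08 to 9.23%, includes the kept share. With these barcodes kept, the CHGA-high shares were 1.88%, 3.01% and 1.87%, and with the top 15% removed 1.04%, 0.641% and 1.14%. Kept CHGA-high cells with a mitosis call had a median of 17969 UMIs, against 12651 in cells with neither call. CHGA-low cells showed a like difference, with 18867 UMIs against 14165. The median doublet score of mitosis-called CHGA-high cells was 0.0483 in KO, 0.217 in HET and 0.0828 in WT, against 0.0379, 0.0648 and 0.0464 in cells with neither call. In HET it lay just under the score at which barcodes were removed, 0.239, and those 8 cells include 5 of the 12 with a mitosis call and endocrine markers. The part of remaining doublets in the calls was not tested.

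By hormone, cycling calls lay mostly in CHGA-high cells without a hormone. A hormone class required 20 or more UMIs per 10,000 of INS, GCG, SST or GHRL. Cells of no class had a mitosis call in 26 of 1300 cases (2%, exact 95% interval 1.31 to 2.93) and cells of any class in 7 of 1392 (0.503%, 0.202 to 1.03). For replication the counts were 35 (2.69%) and 13 (0.934%). In cells without a hormone, mitosis calls numbered 9 of 564 in KO, 4 of 216 in HET and 13 of 520 in WT, and in cells with a hormone 0 of 324, 4 of 298 and 3 of 770. The share was higher without a hormone in each library, and in HET the 2 shares, 1.85% and 1.34%, differed by less than their counting intervals.

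Among single classes, cells of INS alone had 2 mitosis calls in 462 cells and 5 replication calls. Cells of both INS and GCG had 0 mitosis calls in 427, for which the exact 95% interval reaches 0.860%, and 3 replication calls. Cells of GCG alone had 0 of either in 59, with an exact interval that reaches 6.06%. The 3 calls in GHRL cells were all in HET (3 of 38), with 0 of 119 in KO, and the 2 calls in SST cells were both in WT (2 of 20). In the class sums, mitosis members stood at 287 CPM in HET GHRL cells, against 41.5 CPM in WT GHRL cells (20 cells), and at 395 CPM in the WT SST class. Each of these high sums rests on 2 or 3 called cells. Pooled over libraries, mitosis members summed to 143 CPM in hormone-negative cells, 57.9 CPM in INS cells and 51.5 CPM in INS and GCG cells. Replication members summed to 205, 137 and 104 CPM in the same classes. In KO, HET and WT, 63, 33 and 103 CHGA-high cells lay near a hormone threshold, at 16 to 24 per 10,000.

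**Figure D3:**
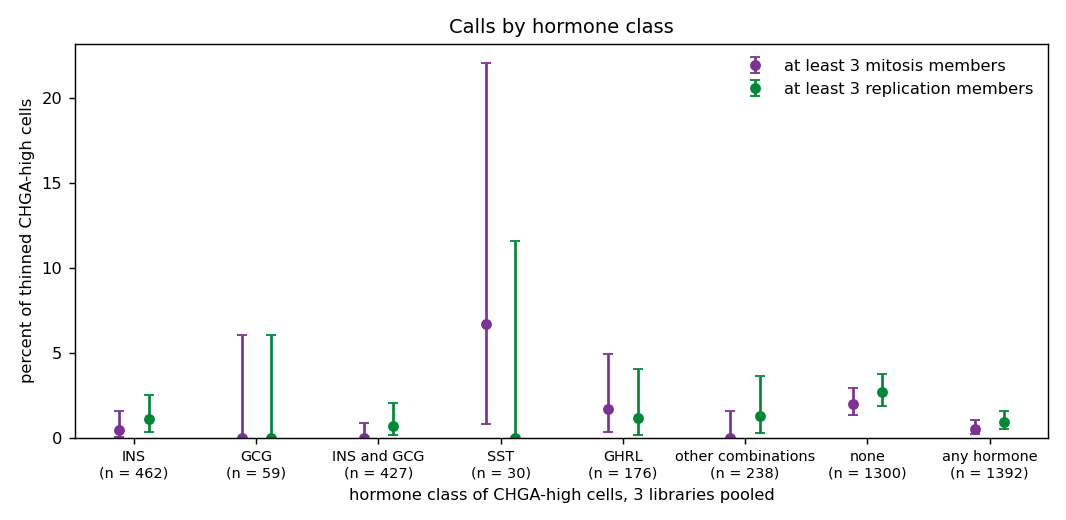
Percent of thinned CHGA-high cells with a mitosis call (purple) or a replication call (green) by hormone class, over the 3 libraries pooled, with exact 95% binomial intervals and the number of cells under each class. Hormone-negative cells reach 2% and 2.69%, cells of any hormone 0.503% and 0.934%, and the SST class of 30 cells has the widest intervals.

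Between genotypes, the replication sum was higher in both mutant libraries than in WT, in both cell classes, while the mitosis sum among CHGA-low cells was higher in HET and close to WT in KO. In CHGA-low cells the replication sum was 395 CPM in KO and 494 CPM in HET, against 257 CPM in WT, ratios of 1.54 (1.51 to 1.56) and 1.93 (1.90 to 1.96). The mitosis sum was 363 CPM in KO and 657 CPM in HET, against 376 CPM in WT, ratios of 0.964 (0.951 to 0.978) and 1.75 (1.72 to 1.77). In KO, 16 of 16 replication members and 11 of 22 mitosis members lay above WT, or 15 (without MCM6) and 7 with TMM-scaled totals. In HET all 38 lay above WT, or 37 (without PTTG1) with TMM-scaled totals. Of all genes at or above 10 CPM, 59.7% lay above WT in KO and 60.5% in HET, both with plain totals. These are single libraries, and no spread between differentiations is known.

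A member was called between libraries at 2-fold or more with at least 10 CPM in 1 of them. In KO CHGA-low cells 3 of the 13 replication members at that level were called higher, where 1.07% of genes were. MCM2 had 19.0 CPM in KO and 19.5 CPM in HET, against 9.40 CPM in WT, and in CHGA-high cells 9.34 and 9.14 CPM, against 4.44 CPM. MCM4 had 19.7 CPM in KO and 25.6 CPM in HET, against 9.19 CPM in WT, and in CHGA-high cells 10.9 and 9.84 CPM, against 5.35 CPM. GINS2 had 13.1 CPM in KO and 18.3 CPM in HET, against 6.46 CPM in WT, and in CHGA-high cells 5.27 and 6.61 CPM, against 3.64 CPM. All 3 belong to the helicase that opens the DNA at forks, and with TMM-scaled totals, which lower the KO ratios by 0.11 (log2), none of them reached 2-fold. CDC6 had a ratio of 2.15 at 8.53 CPM in KO, under the level required. At the low end of the group MCM6 had 32.8 CPM in KO and 32.1 CPM in WT, and UHRF1 8.40 CPM and 7.51 CPM. None of the 16 mitosis members at 10 CPM was called in KO in either direction, where 1.07% of genes were higher and 1.64% lower. PTTG1 came nearest, with 20.3 CPM in KO and 39.5 CPM in WT (ratio 0.513, and log2 -1.07 with TMM-scaled totals, which is past 2-fold), and CCNB2 (0.695), UBE2C (0.755) and CDC20 (0.792) were the next lowest. KIF11 (1.35), AURKA (1.29) and BUB1B (1.29) had the highest KO ratios.

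In HET CHGA-low cells, 4 of 20 mitosis members and 9 of 16 replication members were called higher, where 1.32% of genes were. With TMM-scaled totals the counts were 3 and 7, for which the share of genes is not given. No member was called lower, where 0.932% of genes were. The mitosis members were KIF11 (ratio 2.61), CENPF (2.31), MKI67 (2.26) and KIF23 (2.08). The replication members were CDC6 (2.94), PCLAF (2.88), GINS2 (2.83), MCM4 (2.79), RRM2 (2.65), MCM5 (2.24), PCNA (2.22), CDT1 (2.19) and MCM2 (2.07). CDC6 had 8.53 CPM in KO and 11.7 CPM in HET, against 3.97 CPM in WT, and in CHGA-high cells 1.87 and 3.23 CPM, against 1.71 CPM. MCM5 had 11.1 CPM in KO and 12.7 CPM in HET, against 5.68 CPM in WT, and in CHGA-high cells 3.06 and 5.34 CPM, against 2.45 CPM. CDT1, which loads the helicase with CDC6, had 7.02 CPM in KO and 10.2 CPM in HET, against 4.67 CPM in WT, and in CHGA-high cells 2.12 and 2.81 CPM, against 1.65 CPM. The lowest HET ratios were those of PTTG1 (1.06) and MCM6 (1.16), and both genes also had the lowest KO ratio of their groups. The comparisons of KO and of HET share the WT library.

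**Figure D4:**
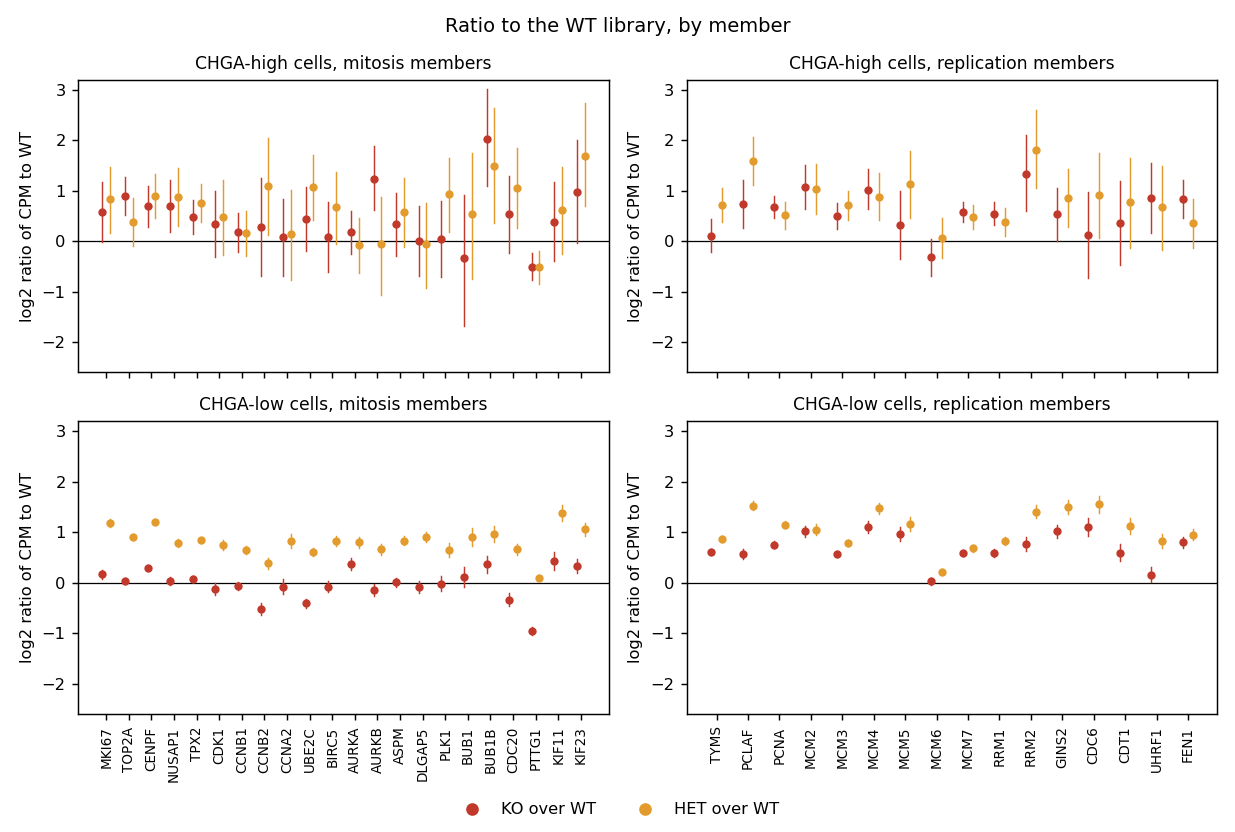
Log2 ratio of each member's CPM in KO (red) and HET (orange) to that in WT, in CHGA-high cells (upper panels) and CHGA-low cells (lower panels), for 22 mitosis members (left) and 16 replication members (right), with exact conditional 95% intervals for counting error. In CHGA-low cells the KO points scatter about 0 for mitosis and all lie above 0 for replication, while MCM6 lies near 0 and PTTG1 below the other KO points.

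In CHGA-high cells the replication sum was 191 CPM in KO and 202 CPM in HET, against 130 CPM in WT, ratios of 1.47 (1.38 to 1.56) and 1.56 (1.45 to 1.66). The mitosis sum was 111 CPM in KO and 118 CPM in HET, against 88.5 CPM in WT, ratios of 1.25 (1.16 to 1.35) and 1.34 (1.23 to 1.46). In thinned cells, 49.6%, 31.6% and 42.1% of these mitosis UMIs lay in the 9 KO, 8 HET and 16 WT cells with a mitosis call. The intervals take UMIs as independent and leave out this spread between cells. Cells with neither call had 53.5 CPM in KO and 75.0 CPM in HET, against 50.8 CPM in WT. Of the replication members at 10 CPM, 1 of 8 was called higher in KO (MCM4, 10.9 CPM in KO and 5.35 CPM in WT, where 2.68% of genes were called higher) and 1 of 7 in HET (PCLAF, 12.1 CPM in HET and 4.04 CPM in WT, where 0.978% of genes were called higher). With TMM-scaled totals MCM4 in KO was no longer called. None of the 3 mitosis members at that level was called in either library, and no member of either group was called lower, where 3.33% of genes were lower in KO and 1.54% in HET. PTTG1 had 14.2 CPM in KO and 14.1 CPM in HET, against 20.1 CPM in WT. It was lower in both mutant libraries beyond counting error, and was the 1 mitosis member of which that held.

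The cells behind these sums differed in hormone. Hormone-negative cells made up 64.6% of CHGA-high cells in KO and 42.4% in HET, against 40.0% in WT. Within them the mitosis sum was 148 CPM in KO and 134 CPM in HET, against 140 CPM in WT, ratios of 1.06 (0.969 to 1.15) and 0.960 (0.850 to 1.08), neither distinguishable from WT by counting error. The replication sum in the same cells was 213 CPM in KO and 255 CPM in HET, against 176 CPM in WT, ratios of 1.21 (1.12 to 1.30) and 1.45 (1.32 to 1.59). In INS cells the replication ratios were 1.54 for KO and 1.65 for HET, and the mitosis ratios 0.883 (0.656 to 1.18) and 1.87 (1.49 to 2.36). In cells of both INS and GCG the replication ratios were 1.03 (0.69 to 1.49) for KO and 1.52 (1.27 to 1.80) for HET, and in GHRL cells 1.12 (0.774 to 1.68) and 1.77 (1.20 to 2.70). The HET replication sum thus lay above WT in all 4 classes by counting error, and the KO sum in hormone-negative and INS cells, while in the other 2 classes it could not be told from WT. For KO mitosis members, none of these 4 classes had a ratio beyond counting error. It was 1.29 (0.774 to 2.05) in cells of both INS and GCG and 0.911 (0.461 to 2) in GHRL cells. The HET mitosis ratio was 1.29 (0.995 to 1.67) in cells of both INS and GCG and 6.92 (3.66 to 14.7) in GHRL cells. That GHRL ratio rests on 38 HET cells, 3 of them with a mitosis call, and on 20 WT cells. The SST class, for which no ratio was taken, had 0 mitosis UMIs in 7 KO cells, against 395 CPM in 20 WT cells. The exact interval of the KO value reaches 53.7 CPM. The WT value came from 96 UMIs, with 2 cells called, so no difference is read from it. The mitosis sum over all KO CHGA-high cells turned below WT at a CHGA threshold of 5 per 10,000 (log2 -0.46), where the HET ratio turned as well (log2 -0.27).

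CHGA-low cells were also split by a list of 5 liver marker genes, of which FGB gave 62.3% of the UMIs, TTR 15.2% and AFP 11.6%. Cells with at least 10 such UMIs per 10,000 made up 97.0% of CHGA-low cells in KO and 90.8% in HET, against 97.3% in WT. Within them the mitosis sum was 326 CPM in KO and 458 CPM in HET, against 375 CPM in WT, ratios of 0.87 and 1.22, and the replication sum 380 CPM and 424 CPM, against 256 CPM, ratios of 1.49 and 1.66. The remaining cells, 209 in KO and 662 in HET, against 177 in WT, had mitosis sums of 1863 CPM and 2622 CPM, against 470 CPM, and held 12.3% and 36.6% of the mitosis UMIs of their class, against 2.29% in WT. These remaining cells were unlike between libraries. Their endocrine markers summed to 914 CPM in KO and 241 CPM in HET, against 2350 CPM in WT. Their mesenchymal markers summed to 227 and 569 CPM, against 7.28 CPM. Genotype and kind of cell therefore cannot be told apart in them. The HET excess of mitosis members was thus smaller within the cells that carry the liver list, and the replication excess of both mutant libraries was closer to its value over all CHGA-low cells. A split by a duct and progenitor list gave HET mitosis ratios of 1.23 in cells that carry it and 5.02 in the rest, and KO ratios of 0.850 and 1.39, so the difference was not particular to the liver list. A split by an intestinal list gave HET ratios of 1.84 and 1.73. These splits were added after the data were seen.

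Some CHGA-low cells, counted apart from the liver split, carried a mesenchymal list (COL1A1, COL3A1, COL1A2, DCN and LUM) at 10 or more UMIs per 10,000. There were 6 such cells in KO and 118 in HET, against 0 in WT, and their mitosis sum was 6508 CPM in KO and 3268 CPM in HET. They held 2.29% of the CHGA-low mitosis UMIs in KO and 9.18% in HET. Without them the CHGA-low mitosis sum was 355 CPM in KO and 608 CPM in HET, against 376 CPM in WT. Over all CHGA-low cells the mesenchymal list summed to 12.0 CPM in KO and 66.5 CPM in HET, against 8.45 CPM in WT, with none of its genes at 0. Its part in the HET values beyond that removal was not tested.

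**Figure D5:**
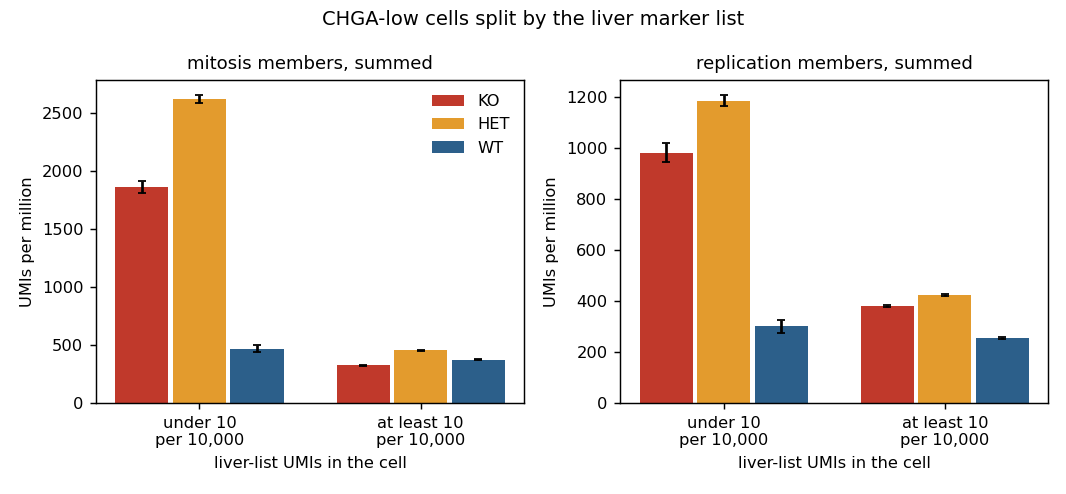
Summed mitosis members (left) and replication members (right), in CPM, in CHGA-low cells with under 10 or at least 10 liver-list UMIs per 10,000, in KO (red), HET (orange) and WT (blue), with exact 95% Poisson intervals. Cells under 10 reach 1863 and 2622 CPM of mitosis members in KO and HET, against 470 CPM in WT, while the cells above it, which are the large majority, lie between 326 and 458 CPM. Cells under 10 also differ between libraries in endocrine and mesenchymal markers.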

How the data were processed

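Droplet single-cell RNA libraries of 3 genotypes were analysed. The deposited values were raw UMI counts per gene and barcode. The file headers name Cell Ranger 6.1.2, and the build was GRCh38 per the submitters' processing notes, which also name Seurat with no role. Any earlier barcode filter is not stated. Each deposited file held 9628 to 9726 barcodes with at least 500 UMIs. All 40 member identifiers were found in GENCODE 29 with the same symbol.

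Barcodes were kept at 1000 to 40000 UMIs, at least 500 genes and at most 20% mitochondrial UMIs. Scrublet (scanpy 1.11.5) called under 0.5% of barcodes, so the top 8% of scores was removed from each library, which left 8030 KO, 7724 HET and 7891 WT cells. Counts were summed per CHGA class and library and tested with edgeR 4.0.16 (R 4.3.3; TMM, filterByExpr, quasi-likelihood test, library as a block because both classes came from the same library, adjusted p under 0.05), tested on simulated data first. The alternatives used DESeq2 1.42.0 and limma 3.58.1. Levels are UMIs per 1000000 UMIs of the class (CPM, plain totals) with exact Poisson intervals, ratios have exact conditional intervals, and shares have Clopper-Pearson intervals, all at 95%. Hormone classes used 20 or more UMIs per 10,000. UMIs count molecules, so intervals cover counting error only.

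Values in every library are written out for the 5 members of each role with the highest mean CPM, the 3 with the largest and the 3 with the smallest difference, those 2-fold apart between libraries, CENPU, HMGB2 and a few standard markers (MKI67, TOP2A, CDK1, CCNB1, PCNA, MCM2 and RRM2). Members, gene lists, motifs and markers were chosen with earlier results of these data known. Whether counting used strand is not stated. Exons of 14 members overlap another gene, among them TYMS with ENOSF1 and TYMSOS, MCM7 with AP4M1, RRM1 with RRM1-AS1, MCM2 with TPRA1, PLK1 with ERN2, and BUB1B with its readthrough BUB1B-PAK6, so part of those counts may belong to the neighbour.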

Additional observations from a re-analysis of the deposited data

Results flagged for a closer look

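For 3 genes and 1 sum, the ratio to WT lay on opposite sides of 1 in the 2 cell classes with counting intervals that excluded 1 in both. Other members had ratios of opposite sign, with an interval that included 1 in at least 1 class. None of these differences was tested, since each genotype is 1 library. AURKB, the kinase of the chromosomal passenger complex, had 4.84 CPM in KO and 2.05 CPM in WT in CHGA-high cells (log2 1.24), and 9.90 CPM in KO and 10.9 CPM in WT in CHGA-low cells (log2 -0.14). HMGB2 had a KO log2 ratio of 0.71 in CHGA-high cells and -0.34 in CHGA-low cells. The summed mitosis members had a KO log2 ratio of 0.32 in CHGA-high cells and -0.05 in CHGA-low cells, and both values changed sign under some alternatives given below, so no direction can be given for it. PTTG1 had a HET log2 ratio of -0.52 in CHGA-high cells and 0.088 in CHGA-low cells.

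Barcodes over 40000 UMIs entered no comparison. Of those that were CHGA-low, 44.2% in HET (68 of 154) had a mitosis call, against 22.2% in WT (28 of 126), and 20.5% in KO (17 of 83) had one. The CHGA-low cells that were kept had 9.97% in HET, against 5.29% in WT.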

How the results depend on the processing

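All 22 mitosis members and 15 or 16 replication members stayed lower in CHGA-high cells under each of the 13 alternatives run (DESeq2, limma, plain totals, no filter, no replicate block, each library left out, other CHGA thresholds, doublet treatments and a stricter cell filter). The counts were 22 and 15 with no replicate block, and 22 and 15 to 16 with a library left out. Plain totals in place of TMM moved the median of all genes to 0.09, against -0.03. Sizes moved most with doublets kept, where the median was -1.72 for mitosis members and -1.14 for replication members, against -2.33 and -1.44. The log2 ratios of class sums to WT also moved, and the causes were not tested. For KO mitosis in CHGA-high cells (0.32) the values were -0.46 at a CHGA threshold of 5, 0.056 with doublets kept, 0.66 with the stricter cell filter, 0.062 with cells weighing the same and 0.075 in cells with neither call. For KO mitosis in CHGA-low cells (-0.05) they were -0.014 at threshold 5, 0.017 with doublets kept, 0.011 with the top 15% removed, -0.16 with TMM, -0.080 with cells weighing the same and -0.20 in cells with the liver list, so no direction can be given. For HET mitosis in CHGA-high cells (0.42) they were -0.27 at threshold 5, 0.76 at 20, 0.032 with the top 15% removed, 0.65 with cells weighing the same and 0.56 in cells with neither call. For HET mitosis in CHGA-low cells (0.80) they were 0.84 at threshold 5, 0.87 with doublets kept, 0.84 with the top 15% removed, 0.67 with TMM, 0.77 with cells weighing the same and 0.29 in cells with the liver list. For KO replication in CHGA-high cells (0.55) they were 0.43 at threshold 5, 0.47 at 20, 0.67 with the stricter filter, 0.46 with TMM and 0.45 in cells with neither call, and in CHGA-low cells (0.62) 0.65 with the top 15% removed, 0.51 with TMM and 0.57 in cells with the liver list. For HET replication in CHGA-high cells (0.64) they were 0.48 with the top 15% removed, 0.74 with the stricter filter and 0.51 in cells with neither call, and in CHGA-low cells (0.95) 0.98 with the top 15% removed, 0.81 with TMM, 0.88 with cells weighing the same and 0.73 in cells with the liver list. Every replication ratio stayed above 0 in these alternatives. The CHGA threshold of 30, the liver-list cells and the cells with neither call were chosen after seeing the data.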
